A study of Mus musculus with 12 samples.

Results

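Skeletal muscle that lacked αB-crystallin (Cryab) and HspB2 (Hspb2) was compared with wild-type muscle over a normal and a high fat diet at once. All 12 samples of the series entered the comparison, the 6 titled KO against the 6 titled Flox, with diet as a covariate, and all genes were examined. Each sample was RNA from hind limb muscle of 1 male mouse of the FVB background at 22 weeks of age. Each genotype had 3 mice fed normal chow and 3 fed a high fat diet. The KO mice lacked both genes in every tissue, so the contribution of each gene cannot be told apart, nor can that of muscle and of other organs. WT and KO mice came from heterozygous breeding, and the samples titled Flox are called WT here, since the study treats them as wild type. Of the 22923 gene symbols listed, 11945 reached 1 FPKM in at least 3 samples and were tested.

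αB-crystallin and HspB2 are small heat shock proteins. Small heat shock proteins bind unfolding proteins without using ATP and hold them in a state from which other chaperones can refold them. In striated muscle αB-crystallin sits at the Z-disc, on desmin filaments and on titin, and mutations in it cause myopathy with protein aggregates. HspB2 binds the myotonic dystrophy protein kinase and is largely restricted to heart and skeletal muscle. The genes lie head to head and share a promoter region.

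The deleted genes were checked in every sample first. Values are FPKM, fragments per length of transcript and per number of mapped fragments. Cryab was at 561, 536 and 412 in WT mice fed chow and at 649.8, 837 and 731 in WT mice fed high fat diet. In KO mice it was at 0.845, 1.54 and 1.496 on chow and at 1.75, 1.17 and 1.14 on high fat diet. All 6 KO samples therefore lay far below all 6 WT samples, with a pooled log2 difference of -8.04 ± 0.14 (SE, adjusted p = 5e-12). Hspb2 was at 81.5 to 103 in WT mice and at 0.353 to 1.92 in KO mice (log2 difference -5.76 ± 0.15, adjusted p = 4.23e-10). The genotype field conflicts with the title in 6 samples, and both deleted genes followed the titles in all 12. In the GENCODE M21 annotation of GRCm38, Cryab is at chr9:50751325-50756636 on the plus strand and Hspb2 at chr9:50751078-50752354 on the minus strand.

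The samples were muscle by their markers, with summed FPKM of 6 fibre genes between 33433 and 79114. Of these, the fast myosin gene Myh4 was listed at 0 in all 12 samples, and the skeletal actin gene Acta1 was listed at 0 in WT chow replicate 1 and KO high fat replicate 2. Libraries correlated between 0.963 and 0.984 with each other (Spearman, across genes). Total FPKM lay between 484182 and 691621, leaving aside the microRNA gene Mir324, which was listed at 10172200 in KO chow replicate 3 alone. WT chow replicate 2 and KO chow replicates 1 and 3 stood apart by B and T cell markers, with summed B cell markers of 46.3, 51.6 and 52.7 against at most 5.64 in the other 9. The lowest sums of macrophage and of adipocyte markers were those of WT high fat replicate 1. Because whole muscle was used, more cells of a type and more RNA per cell cannot be told apart in any result.

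Over both diets 164 genes differed between the genotypes at an adjusted p under 0.05 (1.37% of those tested), and these genes are called here. KO muscle had 123 higher (1.03%) and 41 lower (0.343%). The largest rises were those of Serpina3h, the titin-binding stress protein Ankrd1, the small GTPase Rrad and the chemokine Cx3cl1. Apart from Cryab and Hspb2, the largest falls were those of 2310014F07Rik and 2310030G06Rik, which lie within 1 Mb of the deleted pair. All 164 genes moved in the same direction on both diets, as did 68.2% of all genes tested, and all 164 had an unadjusted p under 0.05 on each diet. In 152 of them the 3 KO mice lay beyond the 3 WT mice on each diet, which held for 5.48% of genes tested. Of these 112 were higher and 40 lower, against 3.14% and 2.34% of genes tested. In 88 rises and 31 falls all 6 KO mice lay beyond all 6 WT mice (1.72% and 0.996% of genes tested). These directions, p-values and separations come from the same values as the calls. A change that differs in sign between diets is hardly called over both, so the shared direction is no separate result. The median size of the change was 0.68 on the log2 scale. Of the genes called, 30 rose and 4 fell by at least 1. Genes called had a median of 6.45 FPKM against 7.53 over all genes tested. Fold changes are differences of log2(FPKM + 1), which shrink the changes of weakly expressed genes. Genes such as Serpina3i, Hsf2bp, Ear11, Clca6 and Krt18 reached 1 FPKM in KO mice alone. They entered the test only through the genotype in which they were high.

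**Figure D1:**
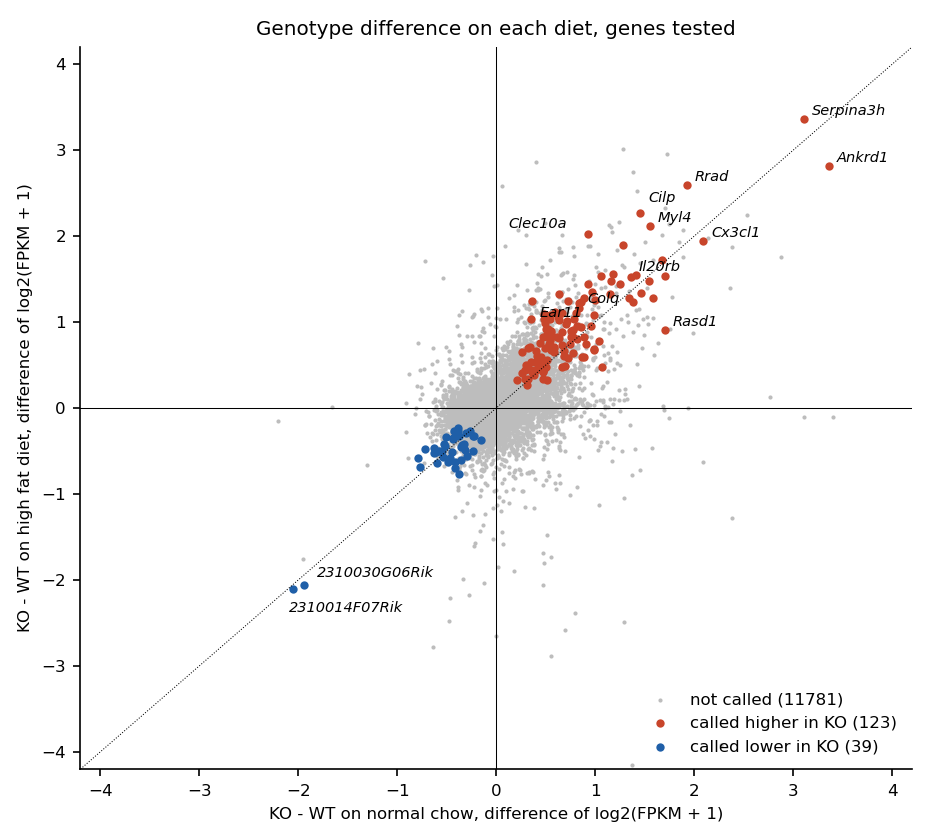
Genotype difference on normal chow (x axis) and on high fat diet (y axis), each KO minus WT in log2(FPKM + 1), for the genes tested. Red and blue points are genes called higher or lower over both diets, grey points are not called, the dotted line marks equal differences, and 7 genes lie outside the axes, Cryab and Hspb2 among them. The called genes lie in the upper right and lower left fields, in which the direction is the same on both diets.

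The number called depended on single libraries. Of the 164 genes, 97 had an adjusted p above 0.04, and a further 1177 genes lay between 0.05 and 0.1. The count was 21 without WT chow replicate 1, 549 without WT chow replicate 2, 46 without WT chow replicate 3, 53 without WT high fat replicate 1, 35 without replicate 2 of that group and 236 without its replicate 3. It was 87, 1020 and 33 without KO chow replicates 1, 2 and 3, and 25, 30 and 53 without KO high fat replicates 1, 2 and 3. Without the 3 libraries high in lymphoid markers it was 21. After quantile normalization it was 346, of which 208 were higher and 138 lower. A total of 20 genes, 15 higher and 5 lower, were called in each of the 12 fits that left out 1 library. Among the rises were Serpina3h, Serpina3i, Ankrd1, Rrad, Cx3cl1, Il20rb, Myl4, Colq, Cpne2, Hsf2bp, Inmt, Gm13889 and ORF63, and the falls were Cryab, Hspb2, 2310014F07Rik, 2310030G06Rik and Nrarp. For every other gene called the number of these 12 fits in which it was called is given beside it.

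The mice of a group differed in how far they stood from the other genotype. Among the 123 genes called higher, KO high fat replicate 2 was the highest of its 3 mice in 92 and KO high fat replicate 3 the lowest in 83. On chow, KO replicate 3 was the highest in 69 and KO replicate 2 the lowest in 68. Among WT mice, replicate 1 was the lowest of 3 for 87 of these genes on chow and for 91 on high fat diet. Among the 41 genes called lower, KO chow replicate 2 was the highest of its 3 mice in 30 and WT chow replicate 1 the highest of its 3 in 29.

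A single stress and stretch gene, Ankrd1, gave the largest change after the deleted pair and a serpin. Ankrd1 encodes a repeat protein that binds titin at the I-band and is known to be induced by stretch, injury and denervation. It was at 1.25, 2.15 and 1.04 in WT mice fed chow and at 9.95, 17.5 and 76.3 in KO mice fed chow. On high fat diet it was at 7.13, 3.33 and 4.14 in WT mice and at 27.5, 91.3 and 22.7 in KO mice. The highest WT value lay below the lowest KO value, and KO chow replicate 3 and KO high fat replicate 2 stood well above the other KO mice. The mean was 12.9 times that of WT (log2 difference 3.09 ± 0.46, adjusted p = 0.0129). Of 18 tested members of the list of titin-linked stress and stretch genes, Ankrd1 was the 1 called (background 1.37%). Its relatives did not pass, with log2 differences of 0.73 for Ankrd2 (adjusted p = 0.0771) and -0.33 for Ankrd23 (0.115), nor did Xirp1, an actin-binding repair protein (0.74, 0.0622). The median over the list was -0.14, against -0.02 over all genes tested, and 0.08 after quantile normalization.

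Rrad and Cdkn1a rose too. Rrad encodes a Ras-related GTPase that restrains voltage-gated calcium channels. It was at 5.36, 5.36 and 5.69 in WT and 12.9, 22.4 and 44.2 in KO mice fed chow, and at 1.72, 4.47 and 5.62 in WT and 23.4, 40.8 and 20.2 in KO mice fed high fat diet. The lowest KO value was above the highest WT value (log2 difference 2.26 ± 0.30, adjusted p = 0.00865). Cdkn1a, a cyclin-dependent kinase inhibitor that also rises in atrophying muscle, was at 7.02 to 13.3 in WT and 17.4 to 50.7 in KO mice (log2 difference 1.48 ± 0.23, adjusted p = 0.0175). Its call was kept in 10 of 12 fits. Of 16 atrophy genes and myostatin, 2 were called, both higher (background 1.03%). They were Cdkn1a and Eda2r, the receptor of ectodysplasin A2 (log2 difference 1.05 ± 0.20, adjusted p = 0.0393, 5 of 12 fits). The ubiquitin ligase members of that list were not among those called, for example Fbxo31 at -0.28 (adjusted p = 0.129) and Fbxo21 at 0.32 (0.0865). The list median was 0.07. Fst, whose product follistatin binds myostatin and activins, rose by 0.91 ± 0.14 (adjusted p = 0.0188, 11 of 12 fits), and the deubiquitinating enzyme gene Uchl1 by 1.63 ± 0.33 (0.0467, 5 of 12 fits). Fst was picked after its values were seen.

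**Figure D2:**
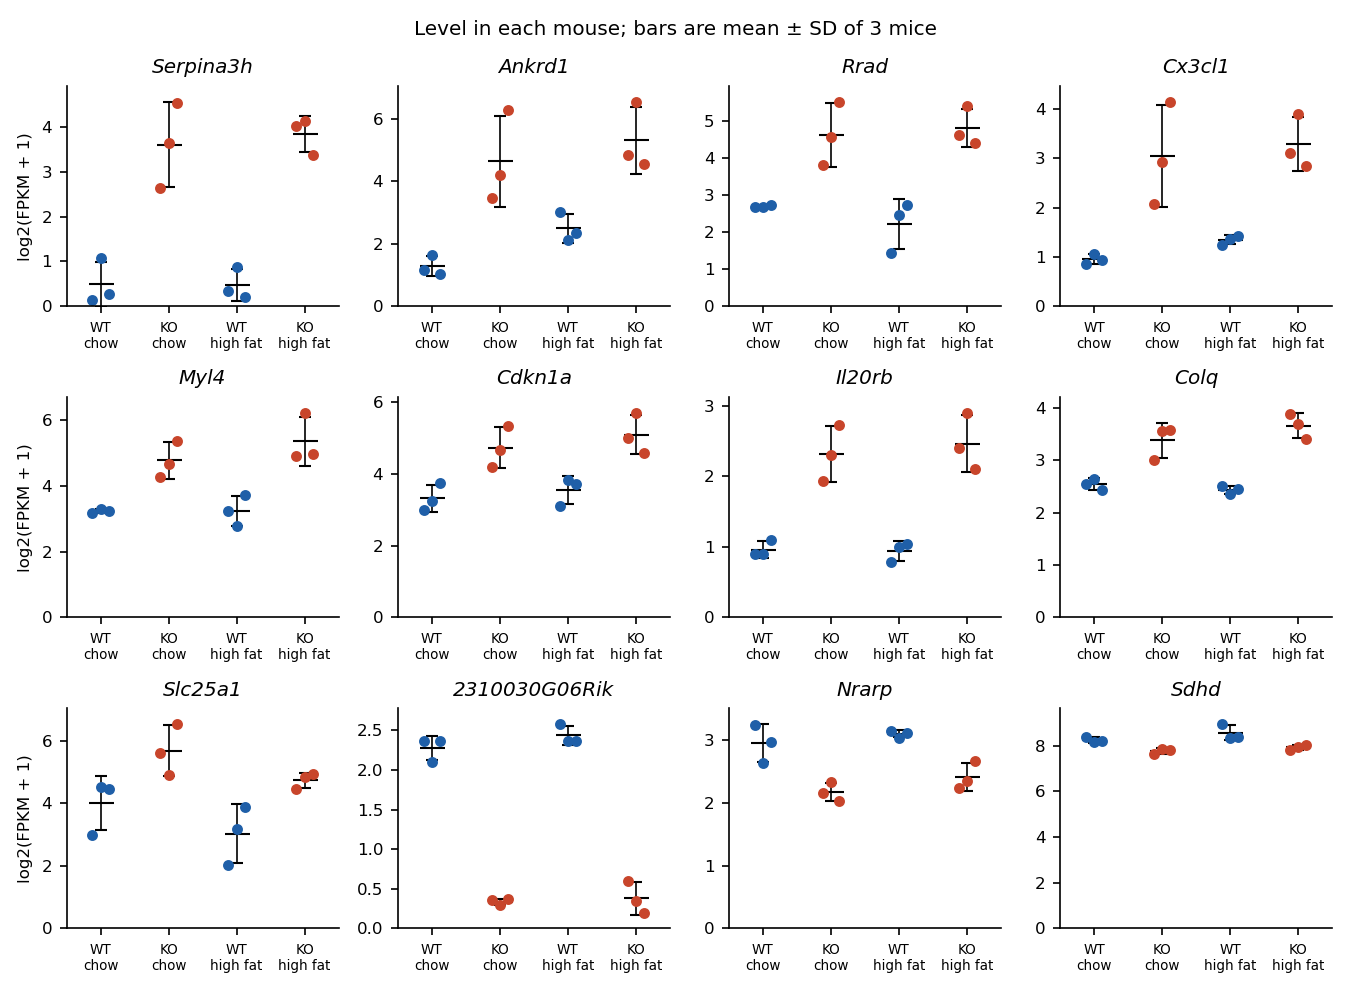
Level of 12 genes in each mouse, as log2(FPKM + 1) on the y axis, by genotype and diet on the x axis. Points are mice, blue WT and red KO, and the bars are the mean and SD of 3 mice. For Serpina3h, Ankrd1, Rrad, Cx3cl1, Myl4, Cdkn1a, Il20rb and Colq the 6 KO mice lie above the 6 WT mice, and for 2310030G06Rik and Sdhd they lie below, while Slc25a1 and Nrarp separate within each diet only.

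Genes of the neuromuscular junction gave 3 calls among 19 tested, all higher (background 1.03%). Colq encodes the collagen tail that anchors acetylcholinesterase in the synaptic basal lamina, while Chrna1 and Chrne encode subunits of the muscle acetylcholine receptor. Colq was at 4.84, 5.28 and 4.40 in WT and 7.02, 10.7 and 10.96 in KO mice fed chow, and at 4.70, 4.09 and 4.45 in WT and 13.7, 11.9 and 9.58 in KO mice fed high fat diet. No KO value reached down to the WT values, and the spread within WT mice was small (log2 difference 1.03 ± 0.12, adjusted p = 0.00311). Chrna1 was at 6.48, 5.10 and 5.41 in WT and 6.86, 8.71 and 15.5 in KO mice fed chow, and at 6.54, 6.597 and 5.74 and 18.9, 13.2 and 9.40 on high fat diet. The KO values lay above the WT values, by a narrow gap on chow (log2 difference 0.84 ± 0.18, adjusted p = 0.0498, 3 of 12 fits). Chrne, the subunit that replaces the fetal gamma subunit in adult muscle, was at 7.93 to 14.1 in WT and 14.4 to 31.5 in KO mice (log2 difference 0.79 ± 0.17, adjusted p = 0.0496, 4 of 12 fits). Runx1, a transcription factor known to rise on denervation, had a log2 difference of 0.61 that did not pass (adjusted p = 0.0626). Of the 19 genes 12 were higher and 7 lower, against 44.4% and 55.6% of all genes tested, with a median of 0.20. The summed markers of Schwann cells, which cover the nerve terminal, were at 62.1, 60.8 and 342 in WT and 260.0, 314 and 188 in KO mice fed chow, and at 94.2, 148 and 134 and 151, 111 and 87.4 on high fat diet, so that the genotypes overlapped.

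The promoters of both receptor genes are shown because the E-box CAGCTG, a sequence that MyoD and myogenin can bind, is known for its place in acetylcholine receptor promoters. Each line runs 5′ to 3′ on the gene's strand, from 250 bases before to 50 after the start given by RefSeq in GRCm38.p6, with matches to CAGCTG in capitals. The window of Chrne is chr11:70619145-70619444 (minus strand) and that of Chrna1 chr2:73580289-73580588 (minus strand).
Chrne: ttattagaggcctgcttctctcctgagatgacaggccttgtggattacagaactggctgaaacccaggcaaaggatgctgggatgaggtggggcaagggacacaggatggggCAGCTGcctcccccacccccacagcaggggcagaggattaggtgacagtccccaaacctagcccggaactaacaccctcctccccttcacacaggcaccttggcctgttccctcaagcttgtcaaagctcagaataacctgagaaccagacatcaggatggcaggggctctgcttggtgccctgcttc
Chrna1: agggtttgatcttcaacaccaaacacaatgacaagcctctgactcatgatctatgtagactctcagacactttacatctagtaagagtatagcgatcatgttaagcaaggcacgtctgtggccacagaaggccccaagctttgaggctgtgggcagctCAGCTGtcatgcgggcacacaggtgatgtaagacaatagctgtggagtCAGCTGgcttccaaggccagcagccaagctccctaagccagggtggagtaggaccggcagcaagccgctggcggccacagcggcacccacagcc
Chrne held 1 match, whose first base lies at -138 from the start, and Chrna1 held 2, at -92 and -44. The motif reads the same on both strands. Such a window was at hand for 88 of the 123 genes called higher and 31 of the 41 called lower. CAGCTG occurred in 27.3% of the former and 19.4% of the latter, against 18.3% of all 27025 genes with a window. The reference is another strain than the mice.

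The heat shock element was searched in the same windows, as 2 head-to-head or tail-to-tail repeats, since the deleted pair are heat shock proteins. GAANNTTC was in a window of 6.82% of genes called higher, 3.23% of those called lower and 9.04% of all genes. For TTCNNGAA these shares were 10.2%, 3.23% and 9.60%. Per window they were 4.84%, 2.5% and 7.86% for GAANNTTC and 8.06%, 2.5% and 8.52% for TTCNNGAA. Both read the same on either strand, and matches to one may overlap those to the other. Ankrd1 held 1 match to GAANNTTC, at -118 in chr19:36119795-36120094 (minus strand, match in capitals).
Ankrd1: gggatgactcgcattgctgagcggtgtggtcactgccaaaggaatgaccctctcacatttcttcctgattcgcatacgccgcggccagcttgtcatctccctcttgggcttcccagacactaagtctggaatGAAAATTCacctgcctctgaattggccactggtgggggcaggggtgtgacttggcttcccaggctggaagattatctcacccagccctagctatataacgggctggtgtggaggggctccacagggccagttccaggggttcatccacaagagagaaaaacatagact

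Genes of developing and regenerating muscle had the second highest median of the lists. Of 14 tested, 2 were called, both higher (background 1.03%), and the median was 0.66. Myl4 encodes a myosin light chain of embryonic skeletal muscle and of the atria. It was at 8.06, 8.74 and 8.39 in WT and 18.4, 24.7 and 40.7 in KO mice fed chow, and at 8.44, 5.93 and 12.1 and 28.9, 73.1 and 30.3 on high fat diet. All KO values exceeded all WT values (log2 difference 1.83 ± 0.26, adjusted p = 0.0117). Myh3, the embryonic myosin heavy chain, was low throughout, at 0.235 to 1.38 in WT and 1.74 to 10.1 in KO mice. It separated the genotypes with a log2 difference of 1.43 ± 0.31 (adjusted p = 0.0496, 4 of 12 fits). The transcription factor gene Myog had 8.09 ± 2.58 FPKM in WT and 16.9 ± 5.84 in KO mice (SD, n = 6) and did not pass (log2 difference 0.96, adjusted p = 0.0611). Sarcolipin (Sln), a small inhibitor of the sarcoplasmic reticulum calcium pump, varied widely, with 4.56 to 58.9 in WT and 32.4 to 254 in KO mice. Its log2 difference of 2.39 ± 0.53 did not pass (adjusted p = 0.0519).

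The serpins of the Serpina3 cluster, extracellular protease inhibitors of the acute phase, had the highest median of the lists, 1.11. Of 9 members 5 were tested, and all 5 were higher. Serpina3i reached 1 FPKM in KO mice alone, and Serpina3h in WT mice only in WT chow replicate 2. Both passed the filter through KO mice, so the filter in part fixed the median, its rank and the count of rises. Serpina3h was at 0.0941, 1.10 and 0.219 in WT and 5.26, 11.4 and 22.1 in KO mice fed chow, and at 0.275, 0.842 and 0.159 and 15.2, 16.5 and 9.43 on high fat diet. It was close to 0 in most WT mice and well above that in every KO mouse (log2 difference 3.24 ± 0.29, adjusted p = 0.000249). Serpina3i rose as well, from at most 0.154 in WT mice to 0.664 to 2.58 in KO mice (log2 difference 1.24 ± 0.16, adjusted p = 0.00813). Serpina3c and Serpina3n did not pass, at 1.11 (adjusted p = 0.0644) and 0.99 (0.0881). These genes are near copies of each other and reads may have been split among them, and Serpina3h is annotated as a transcribed pseudogene at chr12:104247905-104253669.

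Of 78 tested cytokines, chemokines and their receptors, 4 were called, all higher (background 1.03%). A positive difference was found for 65, against 44.4% of all genes tested. The median was 0.35. Cx3cl1 encodes fractalkine, a membrane-bound chemokine for cells of the monocyte lineage. It was at 0.823, 1.10 and 0.921 in WT and 3.22, 6.61 and 16.6 in KO mice fed chow, and at 1.38, 1.59 and 1.69 and 7.598, 14.0 and 6.23 on high fat diet. The 6 KO values lay above the 6 WT values (log2 difference 2.01 ± 0.28, adjusted p = 0.0117). Il20rb, a receptor chain shared by cytokines of the interleukin 20 family, was at 0.718 to 1.14 in WT and 2.82 to 6.43 in KO mice, with little spread among WT mice (log2 difference 1.44 ± 0.15, adjusted p = 0.000886). Ccl6, a chemokine of macrophages, rose by 1.30 ± 0.24 (adjusted p = 0.0391, 5 of 12 fits), and Tnfrsf23, a decoy receptor, by 0.67 ± 0.14 (0.0467, 3 of 12 fits). Interferon-stimulated genes gave no call among 21 tested. There 20 of 21 were higher, 6 with an unadjusted p under 0.05 (background 13.1%), and the median was 0.32.

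Macrophage markers were higher in KO muscle. The summed level of Cd68, Emr1, Csf1r, Mrc1 and C1qa was 61.9, 81.8 and 61.5 in WT and 127, 94.7 and 115 in KO mice fed chow, and 21.4, 61.8 and 55.6 in WT and 107, 168 and 79.9 in KO mice fed high fat diet. On each diet the 3 KO mice lay above the 3 WT mice. Over both diets the sums touched, since KO high fat replicate 3 (79.9) lay just under WT chow replicate 2 (81.8). All 5 genes were higher with an unadjusted p under 0.05 (background 13.1%). Mrc1, the mannose receptor of tissue macrophages, was called (log2 difference 0.98 ± 0.21, adjusted p = 0.0496, 3 of 12 fits). Clec10a, a galactose-type lectin of macrophages and dendritic cells, was at 9.22, 12.1 and 10.3 in WT and 26.7, 19.4 and 17.2 in KO mice fed chow, and at 2.18, 9.08 and 7.56 and 19.7, 40.8 and 20.2 on high fat diet. The groups did not overlap (log2 difference 1.47 ± 0.31, adjusted p = 0.0478, 3 of 12 fits). Among the other genes called, its relative Mgl2 rose by 0.77 (5 of 12 fits), the lectin gene Cd209a by 0.79 (2), the ficolin gene Fcna by 1.18 (4), the complement genes Cfp and C2 by 0.86 (5) and 1.03 (3), and the endotoxin receptor Cd14 by 0.82 (2), all on the log2 scale. These 6 were picked after their values were seen. Their part in the change of Cx3cl1 or Ccl6 was not tested.

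**Figure D3:**
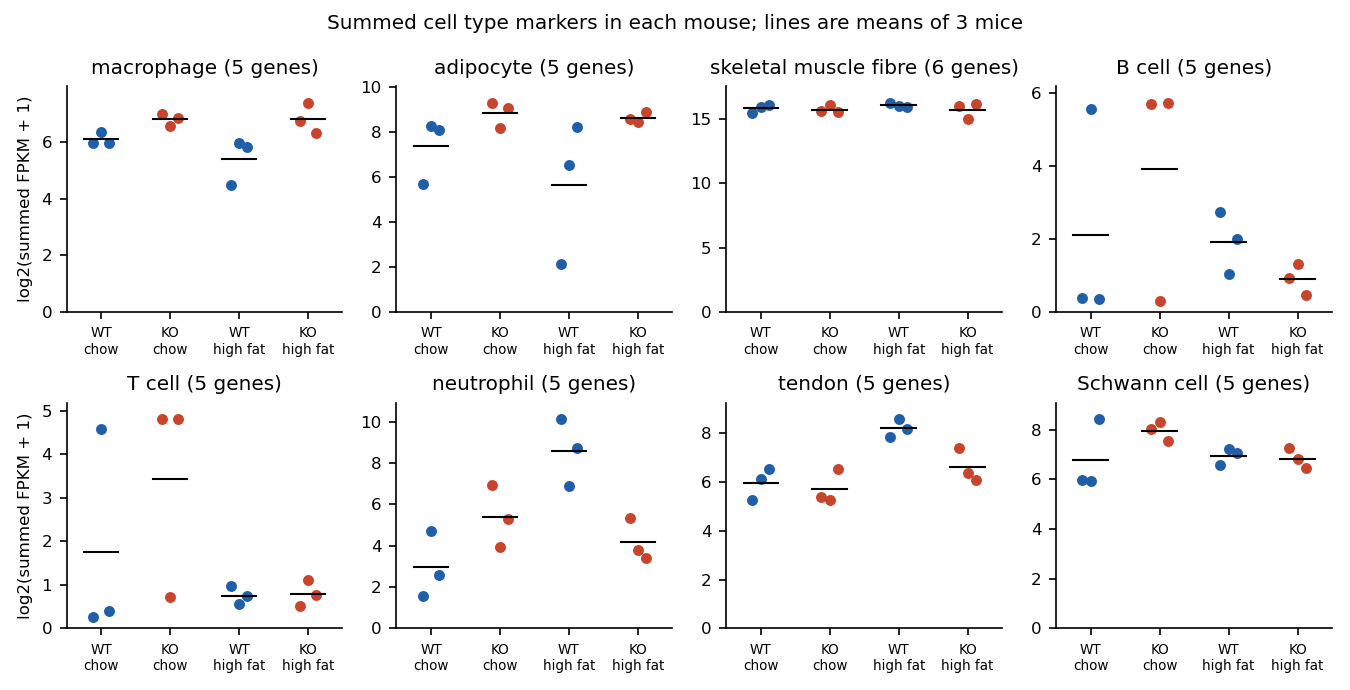
Summed markers of 8 cell types in each mouse, as log2(summed FPKM + 1) on the y axis, by genotype and diet on the x axis. Points are mice, blue WT and red KO, and lines are means of 3 mice. Macrophage sums are higher in the KO mice on each diet, adipocyte sums are lowest in WT high fat replicate 1 (3.43), and B and T cell sums are high in 1 WT and 2 KO mice fed chow.

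Fat cell markers were higher in KO muscle without a call. The sum of Adipoq, Lep, Plin1, Cidec and Retn was 51.0, 309 and 273 in WT and 627, 288 and 535 in KO mice fed chow, and 3.43, 90.3 and 298 in WT and 374, 341 and 464 in KO mice fed high fat diet. The genotypes overlapped on chow and were apart on high fat diet. All 5 genes were higher, 4 with an unadjusted p under 0.05 (background 13.1%), with a median of 2.02 and a lowest adjusted p of 0.0744. Slc25a1, the mitochondrial citrate carrier, was at 7.03, 22.2 and 21.1 in WT and 47.6, 29.0 and 91.7 in KO mice fed chow, and at 3.04, 8.13 and 13.9 and 21.3, 27.5 and 29.6 on high fat diet. Each diet separated the genotypes, while the lowest KO value on high fat diet fell below the highest WT value on chow (log2 difference 1.70 ± 0.37, adjusted p = 0.0496, 3 of 12 fits). Gys2, the glycogen synthase of liver, was lowest in the same WT mice, 0.270 and 0.188 in replicate 1 on chow and on high fat diet (log2 difference 1.51 ± 0.30, adjusted p = 0.0443, 3 of 12 fits). Picked after their values were seen, the dicarboxylate carrier Slc25a10 rose by 1.37 (3 of 12 fits), the triglyceride-forming enzyme Dgat1 by 0.73 (3), pyruvate carboxylase (Pcx) by 0.65 (3) and the cortisone-reducing enzyme Hsd11b1 by 0.84 (4). The part of the fat cell markers in these changes was not tested.

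Markers of other cell types gave no call over both diets, and some set the genotypes apart on 1 diet only. Neutrophil sums overlapped on chow, at 1.96 to 25.4 in WT and 14.3 to 122 in KO mice. On high fat diet they were apart, at 119 to 1104 in WT and 9.69 to 39.5 in KO mice. The highest was that of WT high fat replicate 1. The median log2 difference of the 5 neutrophil genes was 1.38 on chow and -4.16 on high fat diet. T cell sums followed those of B cells, and those of lymph node stroma were 1.69 to 30.7 and 1.30 to 41.5. Smooth muscle sums overlapped on chow, at 83.4 to 115 in WT and 90.1 to 98.9 in KO mice. On high fat diet they were apart, at 119 to 162 and 83.3 to 106. All 4 smooth muscle genes were lower over both diets. Bone sums stayed at or below 60.2, erythroid sums at or below 17.7 and epidermal sums at or below 22.5.

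Matrix genes leaned the same way. Of 30 collagens and matrix genes 25 were higher (background 44.4%), 13 with an unadjusted p under 0.05 (background 13.1%). The median was 0.32 and 0 were called. Col3a1, the collagen of loose connective tissue, had a log2 difference of 0.90 (adjusted p = 0.0870), and Col6a3, of the collagen sheath around fibres, 0.40 (0.0622). Outside this list Cilp, a matrix protein of cartilage and heart, was called. It was at 10.1, 11 and 26.0 in WT and 33.2, 44.95 and 45.8 in KO mice fed chow, and at 6.46, 12.2 and 19.6 and 60.3, 78.1 and 46.2 on high fat diet. The KO values exceeded all WT values, with a wide spread within WT mice (log2 difference 1.86 ± 0.29, adjusted p = 0.0180, 10 of 12 fits). Loxl1, a crosslinking enzyme of elastin, was called as well (0.76, 3 of 12 fits, picked after its values were seen). The 3 fibroblast markers were all higher, with sums of 37.2 to 119 in WT and 105 to 170.2 in KO mice. Tendon markers went the other way. All 4 tested were lower, 3 with an unadjusted p under 0.05 (background 13.5%), with a median of -0.71. Sums of 5 tendon markers overlapped on chow, at 37.1 to 93.1 in WT and 37.2 to 92.2 in KO mice. On high fat diet they were apart, at 230 to 383 in WT and 68.0 to 168 in KO mice.

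The falls were led by neighbours of the deleted pair. 2310030G06Rik starts 4.79 kb from the start of Cryab, on the minus strand at chr9:50739691-50746536. It was at 4.15, 3.30 and 4.17 in WT and 0.277, 0.226 and 0.288 in KO mice fed chow, and at 4.96, 4.16 and 4.17 and 0.517, 0.267 and 0.140 on high fat diet. It was close to absent in every KO mouse (log2 difference -2.001 ± 0.09, adjusted p = 9.98e-08). 2310014F07Rik, annotated as antisense at chr9:50488795-50507823, was at 2.85 to 4.62 in WT and 0.0380 to 0.226 in KO mice (log2 difference -2.07 ± 0.11, adjusted p = 6.02e-07). Reads from an antisense gene and its partner cannot be told apart unless counting used the strand, which the sources used here do not state. Sdhd, the membrane anchor of succinate dehydrogenase at chr9:50596357-50603812, was at 336, 284 and 296 in WT and 198, 227 and 225 in KO mice fed chow, and at 488, 325 and 333 and 225, 244 and 261 on high fat diet. All KO values lay below all WT values (log2 difference -0.56 ± 0.10, adjusted p = 0.0391, 4 of 12 fits). Pts, an enzyme of tetrahydrobiopterin synthesis at chr9:50521617-50528724, fell by a similar amount (-0.57 ± 0.11, adjusted p = 0.0439, 3 of 12 fits).

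Of 16 tested genes that start within 1 Mb of Cryab, 4 were called, all lower (background 0.343%). An unadjusted p under 0.05 was found for 12 (background 26.6%). Of 42 tested between 1 and 5 Mb away, 0 were called and 10 had an unadjusted p under 0.05. Not every near neighbour was lower. Ppp2r1b, a scaffold subunit of protein phosphatase 2A that starts 94.0 kb away, had 5.36 ± 2.20 FPKM in WT and 11.04 ± 3.63 in KO mice (log2 difference 0.95, adjusted p = 0.0525). Over the whole of chromosome 9, 18 of 651 tested genes with a position were called, 2.77%, against 162 of 11734 over all chromosomes. The genes called on chromosome 9 moved both ways, among them Il20rb and Loxl1 higher and Pde4a and Smad3 lower. The highest share was that of chromosome X, 11 of 359 or 3.06%. The alleles that travel with the deletion through breeding and the deletion itself cannot be told apart here.

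**Figure D4:**
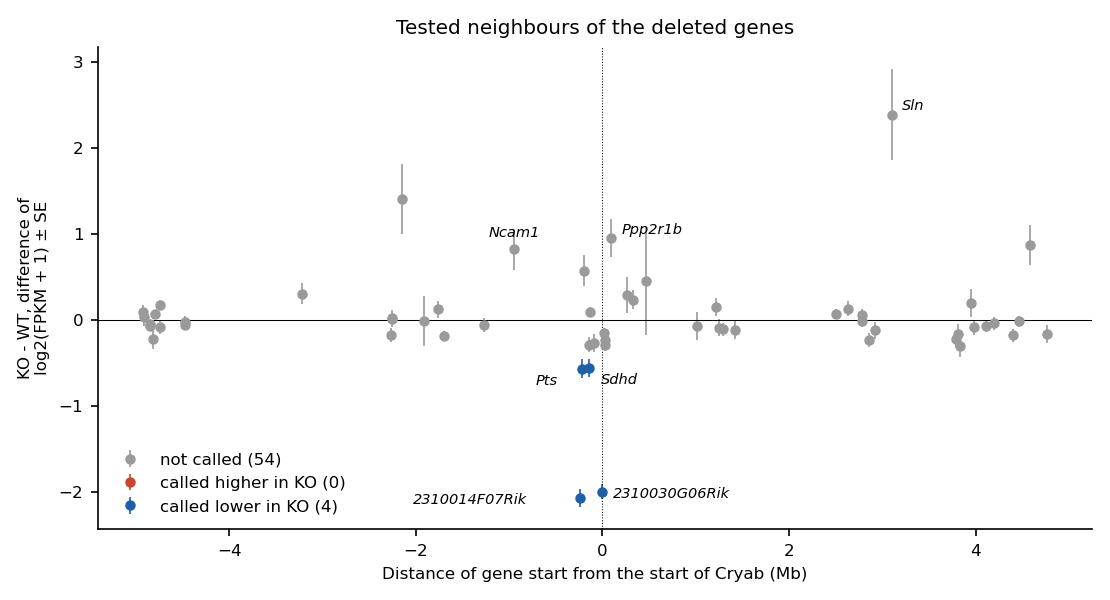
Tested genes that start within 5 Mb of Cryab, by distance of their start from that of Cryab in Mb (x axis) and by the pooled difference KO minus WT in log2(FPKM + 1) with its SE (y axis). Cryab and Hspb2 are left out. The 4 genes called lower (blue) all lie less than 0.25 Mb from Cryab, and no gene is called higher, the highest point being that of Sln, which was not called.

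Away from the locus no gene called lower fell by 1 or more on the log2 scale. Nrarp, a target and feedback inhibitor of Notch signalling, was at 8.44, 5.21 and 6.88 in WT and 3.47, 4.03 and 3.10 in KO mice fed chow, and at 7.83, 7.21 and 7.70 and 3.71, 4.09 and 5.37 on high fat diet. Each diet separated the genotypes (log2 difference -0.73 ± 0.10, adjusted p = 0.0117). Nrarp was the 1 gene outside chromosome 9 called lower in each of the 12 fits. Both phosphodiesterases of cyclic AMP among the falls belong to the type 4 family, and Pde4a was at 20.4 to 29.9 in WT and 11.7 to 19.6 in KO mice (log2 difference -0.69 ± 0.14, adjusted p = 0.0435, 4 of 12 fits) while Pde4b was at 24.97 to 41.6 and 18.8 to 28.0 (-0.54 ± 0.12, 0.0496, 3 of 12 fits). The ranges of Pde4a did not overlap, those of Pde4b did. Smad3, the signal transducer of TGF-β, activins and myostatin, fell (log2 difference -0.56 ± 0.11, adjusted p = 0.0467, 3 of 12 fits). Tcf15, a transcription factor of somites and muscle endothelium, was at 12.8 to 20.3 in WT and 8.63 to 12.5 in KO mice, with no overlap (-0.57 ± 0.09, adjusted p = 0.0239, 8 of 12 fits). Summed endothelial markers were 85.5 to 102 in WT and 76.0 to 93.3 in KO mice. The remaining falls named by rule were those of Mpp3 (-0.60, 3 of 12 fits), Efcab6 (-0.55, 3), Pm20d2 (-0.55, 3), the urotensin receptor Uts2r (-0.52, 3), Gm16062 (-0.62, 3) and Gm10012 (-0.52, 2).

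Subunits of the respiratory chain and of ATP synthase were lower almost throughout, by small amounts. Of 90 genes of this rule, which also takes a few assembly factors, 86 were lower in KO muscle, against 55.6% of all genes tested, and 89 had the same direction on both diets. An unadjusted p under 0.05 with a lower level was found for 79 of them (background 13.5%), while 2 were called (background 0.343%), Sdhd and Cox8b. The median was -0.30 over both diets, -0.25 on chow and -0.36 on high fat diet. Cox8b, the muscle form of a cytochrome c oxidase subunit, had 1535 ± 262 FPKM in WT and 1092 ± 98.9 in KO mice (SD, n = 6, log2 difference -0.48 ± 0.11, adjusted p = 0.0498, 2 of 12 fits). The assembly factor Ndufaf4 was just outside, at -0.37 (adjusted p = 0.0562). All were measured in the same 12 libraries, so their number is not one of independent results. A lean to lower levels was not particular to these subunits. The 5 tested markers of muscle fibres were all lower, 1 with an unadjusted p under 0.05, with a median of -0.19. Fast fibre genes (12 of 12) and glycolysis genes (23 of 24) were lower too, while macrophage, fat cell and fibroblast markers were higher. The part of the fibre markers in the change of the subunits was not tested.

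The heat shock proteins that remain in KO muscle gave no call. The list of small heat shock proteins, drawn up by symbol, had 6 genes tested. Among them Hspb1 had 238 ± 29.9 FPKM in WT and 323 ± 96.4 in KO mice (log2 difference 0.39, adjusted p = 0.184). Hspb8, which works with Bag3 in chaperone-assisted autophagy, had 298 ± 40.3 and 386 ± 96.5 (0.35, 0.198). Hspb6, which forms mixed oligomers with αB-crystallin, had 812 ± 187 and 623 ± 156 (-0.38, 0.133). Hspb11, in the list by its symbol, was at -0.34 (0.0525). The list median was 0.13. Among 41 chaperones of the cytosol and mitochondria, including HSP70 and HSP90 forms, 0 were called and the median was -0.07. At an unadjusted p under 0.05, 1 was higher (background 13.1%) and 8 were lower (background 13.5%). The regulator Hsf1 was at -0.20 (0.0872). Of 28 genes of endoplasmic reticulum stress 23 were higher (background 44.4%), 0 were called and the median was 0.17. Asparagine synthetase (Asns) at 0.95 (0.0520) and its activator Atf4 at -0.33 (0.0732) stood on opposite sides of 0.

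**Figure D5:**
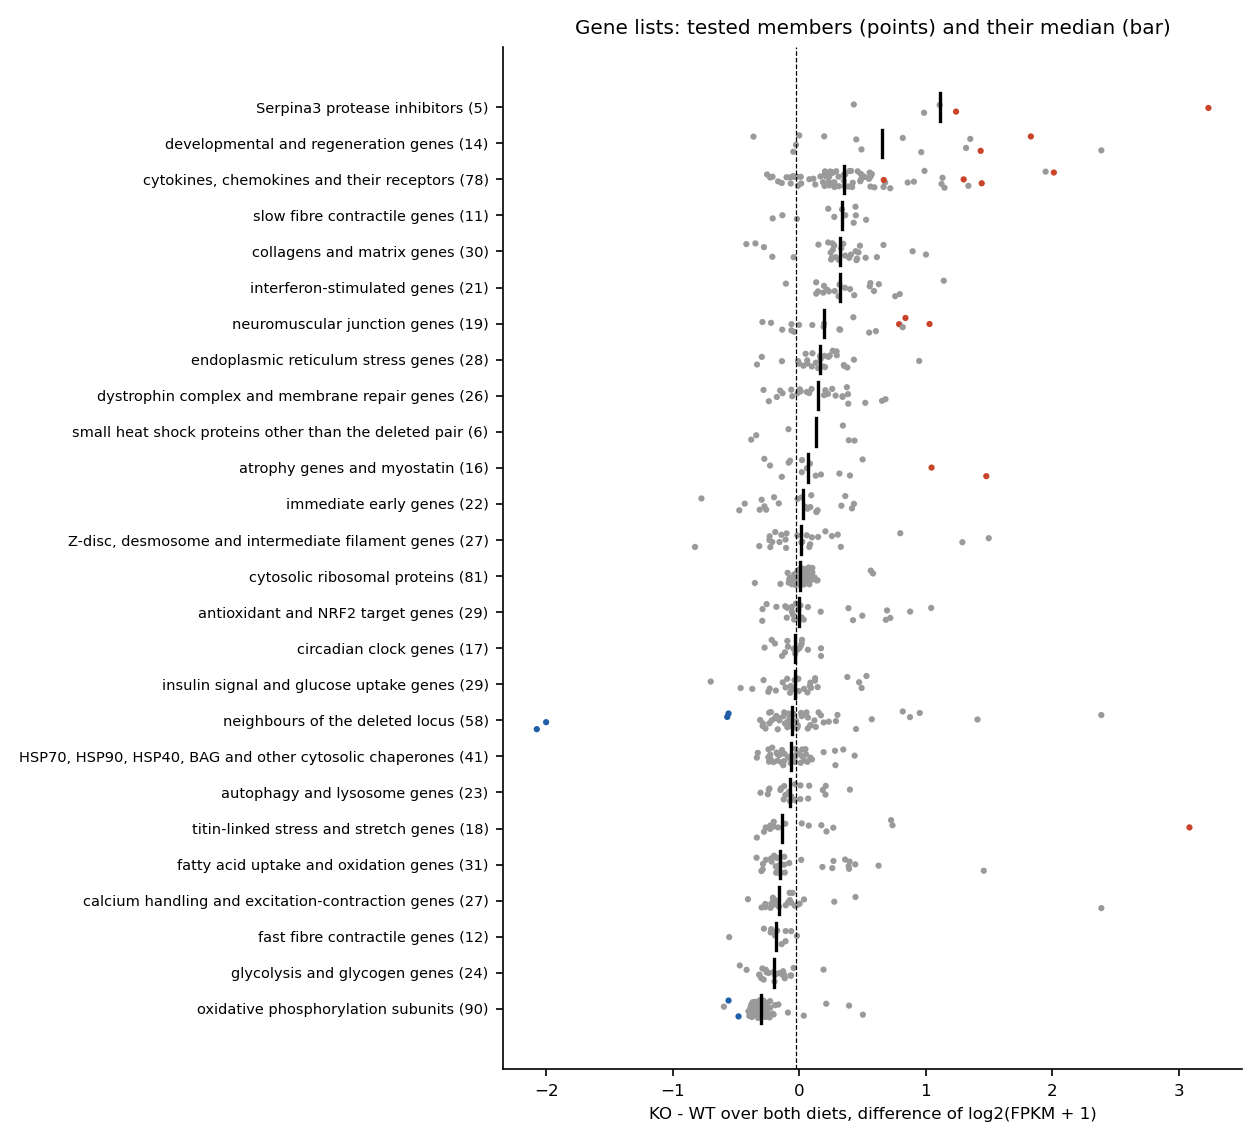
Pooled difference KO minus WT in log2(FPKM + 1) (x axis) of the tested members of each gene list (y axis, number tested in brackets). Red points were called higher, blue lower, grey were not called, black bars are list medians and the dashed line is the median of all genes tested (-0.02). The Serpina3 genes, some of which passed the filter through KO mice, and the developmental genes have the highest medians. The oxidative phosphorylation subunits have the lowest.

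Other gene groups held no gene called. Slow fibre genes had a median of 0.34 over 11 tested and fast fibre genes -0.18 over 12, all 12 of the latter lower (background 55.6%). Without WT high fat replicate 1 the slow fibre median was -0.19. The slow myosin Myh7 overlapped between genotypes, at 68.2 ± 52.1 and 62.0 ± 15.7 FPKM. Glycolysis and glycogen genes were lower for 23 of 24 tested (background 55.6%), with a median of -0.20. An unadjusted p under 0.05 was found for 4 of them, near the background of 13.5%. Ugp2, which makes the glucose donor of glycogen synthesis, was at -0.47 (adjusted p = 0.0652). Fatty acid genes had a median of -0.15 over 31 tested, with 0.20 on chow and -0.44 on high fat diet. Angptl4, an inhibitor of lipoprotein lipase, was at 1.46 (0.0622). Insulin signal and glucose uptake genes centred on -0.04 over 29 tested. Among them the insulin-responsive glucose transporter Slc2a4 had 285 ± 23.7 FPKM in WT and 222 ± 33.3 in KO mice (-0.37, 0.0646), and Tbc1d1, which restrains its transport to the surface, 17.7 ± 7.93 and 9.94 ± 2.97 (-0.70, 0.0731).

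The medians of the remaining lists without a call were -0.16 for calcium handling (27 tested), 0.02 for Z-disc and intermediate filament genes (27), 0.15 for the dystrophin complex and membrane repair (26) and -0.07 for autophagy and lysosome (23). They were 0.00 for antioxidant genes (29), 0.01 for ribosomal proteins (81), -0.03 for clock genes (17) and 0.03 for immediate early genes (22). Just outside the threshold lay nestin (Nes), an intermediate filament of regenerating fibres, at 0.80 (adjusted p = 0.0534). The simple epithelial keratin Krt18 was at 0.0787 to 0.264 FPKM in WT and 0.469 to 8.79 in KO mice, with no overlap and a wide spread among KO mice (1.29, 0.0857). Annexin A1 (Anxa1), of membrane repair, was at 0.68 (0.0554), and integrin β1 (Itgb1) at 0.34 (0.0525).

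Among the members of these lists with the lowest p, none of which was called, the ribosomal protein paralogues stood on opposite sides of 0. Rpl3, the widely expressed form, was at 59.6 to 107 FPKM in WT and 84.6 to 151 in KO mice (log2 difference 0.58 ± 0.18, adjusted p = 0.0845). Rpl3l, the form of mature striated muscle, was at 312 to 437 and 215 to 345 (-0.35 ± 0.12, 0.104). The genotypes overlapped for both. The antioxidant genes with the lowest p were all higher, the glutathione peroxidases Gpx1 at 0.39 (adjusted p = 0.0578) and Gpx3 at 0.50 (0.0649), the microsomal glutathione transferase Mgst1 at 0.68 (0.0554) and the peroxiredoxin Prdx4 at 0.43 (0.0611). Of 29 in that list 15 were higher and 14 lower. Among fatty acid genes, lipoprotein lipase (Lpl) was at 0.39 (0.0643), the lipid droplet coat Plin2 at 0.63 (0.0777) and the liver form of carnitine palmitoyltransferase, Cpt1a, at 0.39 (0.0650), all 3 of which are expressed in fat cells as well.

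Igf1, a growth factor for muscle, was at 0.53 (0.0840) and the regulatory subunit Pik3r1 of phosphoinositide 3-kinase at 0.47 (0.0734). In fast fibres the myosin Myh1 was at -0.55 (0.117) and the calcium pump Atp2a1 at -0.23 (0.322). In glycolysis Pfkm, the muscle phosphofructokinase, was at -0.42 (0.113), and the muscle glycogen synthase Gys1 at -0.32 (0.122), the sign being opposite to that of Gys2. The nuclear lamin gene Lmna was at 0.30 (0.0748), the Z-disc protein myotilin (Myot) at -0.32 (0.101) and laminin α2 (Lama2), of the fibre's basement membrane, at 0.34 (0.0853). The protein disulfide isomerases Pdia6 and Pdia3 were at 0.30 (0.0554) and 0.30 (0.0865), and the cochaperone Bag2 at -0.33 (0.0657). Of the immediate early genes Klf2 was at -0.77 (0.115) and Nr4a1 at -0.47 (0.118). Each of these adjusted p-values came from limma.

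The genotype effect was compared between the diets by an interaction term. No gene had an adjusted p under 0.05 for a difference between the diets by limma, the lowest being 0.408, and 746 genes (6.25%) had an unadjusted p under 0.05. Across all genes tested the difference on chow and that on high fat diet correlated with a Pearson r of 0.469 and a Spearman rho of 0.487, which describes genes and not independent replicates. The contrasts share no mice. Within 1 diet few genes were called, 7 on chow (0.0586%) and 13 on high fat diet (0.109%). Of the 164 genes called over both diets, 5 were called on each diet as well, namely Cryab, Hspb2, 2310014F07Rik, 2310030G06Rik and Serpina3h, while 152 were called on neither. The change was larger on high fat diet for 109 of the 164. Ear11, a ribonuclease of eosinophils, had the lowest interaction p among the genes called (adjusted p = 0.425). It was at 0, 0.0938 and 0.0983 in WT and 0.234, 0.315 and 0.558 in KO mice fed chow, and at 0.102, 0.102 and 0.0888 and 1.84, 1.83 and 1.21 on high fat diet. KO mice were above WT mice on both diets, by 0.36 on chow and 1.25 on high fat diet on the log2 scale. Ear11 reached 1 FPKM only in the KO mice fed high fat diet, through which it passed the filter. It was called in 3 of 12 fits and tested in 9 of them, and Rprml was called in 7 of 12. The difference of Rprml was larger on chow, with 1.07 on chow and 0.47 on high fat diet (adjusted p = 0.672 for the interaction by limma).

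Genes that the study singled out in its genotype comparisons were followed too. They were chosen on these samples, so their direction is not independent evidence. Of 30 such genes outside the keratins 15 were tested and 9 called. Hsf2bp, whose product binds heat shock factor 2, was at 0.216, 0.206 and 0.200 in WT and 0.863, 2.29 and 3.65 in KO mice fed chow, and at 0.210, 0.300 and 0.299 and 1.997, 3.12 and 1.38 on high fat diet. The groups were apart (log2 difference 1.31 ± 0.19, adjusted p = 0.0129). The long noncoding RNA A930003A15Rik rose by 1.59 ± 0.30 (adjusted p = 0.0393, 4 of 12 fits). For others the diets are given side by side. Vipr2, a receptor of vasoactive intestinal peptide, was at -0.91 on chow and 0.06 on high fat diet (adjusted p = 0.408 for the interaction by limma), and the Z-disc protein Igfn1 at -1.66 and 0.01. The pooled comparison called neither (adjusted p = 0.129 and 0.208). Itgb1bp3, a nicotinamide riboside kinase of muscle, was at -1.30 and -0.66 (pooled adjusted p = 0.0973), and Clca6, of the chloride channel accessory family, was at 0 to 0.136 FPKM in WT and 0.219 to 6.75 in KO mice (pooled adjusted p = 0.0702).

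Further rises kept their call in all 12 fits. Cpne2, a copine that binds membranes with calcium, was at 4.72, 5.76 and 5.70 in WT and 11.1, 13.1 and 19.5 in KO mice fed chow, and at 4.19, 5.87 and 5.10 and 13.2, 24.6 and 11.1 on high fat diet. The groups lay apart (log2 difference 1.35 ± 0.18, adjusted p = 0.00842). Cpne2 was picked after its values were seen, and Gm13889, named by rule, rose by 1.40 ± 0.20 (0.0117).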

How the data were processed

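Total RNA from 12 hind limb muscles had been sequenced as paired ends, and the authors deposited gene-level FPKM from Cuffdiff 2.1.1, fragments scaled by transcript length and by mapped fragments. TopHat2 2.0.8b and mm10 are named in the submitters' processing notes. The files hold no read numbers, so depth is unknown and no counting interval is given. Samples were grouped by title. Of repeated symbols the entry with the highest mean was kept, which left 22923, and genes that reached 1 FPKM in 3 or more samples (11945) were fitted as log2(FPKM + 1) on genotype and diet with limma 3.58.1 (R 4.3.3, mean-variance trend, 9 residual degrees of freedom). Values per diet and the interaction came from a fit of 4 group means (8 degrees of freedom). P-values were two-sided and adjusted over all genes tested (Benjamini-Hochberg), with a threshold of 0.05, and measure the spread between these mice.

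Genes were named from the deleted genes, the top 15 rises and top 15 falls by size among genes called with a mean of at least 1 FPKM and 3 KO values beyond 3 WT values on each diet, up to 4 members of each of 26 gene lists by lowest p, and the genes of the study's genotype tables outside the keratins that passed the filter. Members, lists and rule were chosen with earlier results of these data known. Alternatives were the pseudocount, filter, scaling, covariates, variance model, genotype field and each sample left out. A few genes are not reported here. The fit was tested on simulated data. Positions are from GENCODE M21 (GRCm38) and promoters from RefSeq.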

Additional observations from a re-analysis of the deposited data

Results flagged for a closer look

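In 27 of 398 groups of 6 samples of 1 genotype, 1 sample lay far from the other 5 by Dixon's criterion, which chance alone gives in about 1 in 20 groups. Values are FPKM. In WT high fat replicate 1, Rrad (1.72), Clec10a (2.18), Emr1 (0.942) and C1qa (11.4) were low, as was the macrophage marker sum (21.4), and Sdhd was high (488). In WT high fat replicate 2, Prnd (0.349), Cdh5 (29.3) and the endothelial sum (85.5) were low, while Uts2r (3.34), Krt10 (3.29) and the sum for epidermis and hair (22.5) were high.

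In WT chow replicate 2 the lymphocyte genes Ms4a1 (6.97), Cd79b (15.1), Cd3e (6.46), Cd3d (4.38), Cd3g (6.30), Cd4 (3.54) and Cd8a (2.31) were high, with a T cell sum of 23.0. The lymph node genes Ccl19 (28.1) and Cr2 (2.31) and their sum (30.7) were high in the same library. In KO chow replicate 2 the carnitine palmitoyltransferase gene Cpt1a stood apart at 5.08. Ear11 was listed at 0 in WT chow replicate 1. Acta1 was listed at 0 in WT chow replicate 1 and at 0 in KO high fat replicate 2.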

How the results depend on the processing

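Genes called had the same direction on both diets under every alternative run that made calls, which the pooled call itself favours. The number of genes called moved with the processing. It was 42 (31 higher, 11 lower) without a filter on low values, 346 (208 higher, 138 lower) after quantile normalization, 56 (43 and 13) without the diet covariate and 103 (77 and 26) with 4 group means. A pseudocount of 0.1 gave 120, FPKM of at least 1 in every sample 146, size factors 133, no intensity trend 142 and robust variance moderation 146. Leaving out 1 library at a time gave 21 to 1020 genes, 16 to 694 higher and 5 to 326 lower. Leaving out the 3 libraries with lymphoid markers, chosen after seeing the data, gave 21 (15 higher, 6 lower). For the interaction 1 gene was called without the filter, and 0 to 1 when a library was left out, the 1 without WT chow replicate 3. The cause of these changes was not tested.

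Of the 43 genes named and called, 15 stayed called without WT chow replicate 1, 43 without KO chow replicate 2 and 15 without the 3 lymphoid libraries. Deviations of same-numbered mice from their group means correlated at -0.42, -0.81 and -0.27 on chow and -0.07, 0.02 and 0.01 on high fat diet. Mice of different numbers were not compared, so whether the numbers pair the mice was not tested. With the replicate number as a block beside diet 36 genes were called (28 higher, 8 lower), and with the block within diet 21 (17 higher, 4 lower).

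Grouping by the genotype field, which goes against the titles in 6 samples, gave 0 genes called by limma (0 higher, 0 lower) and 229 with an unadjusted p under 0.05. The log2 differences that changed sign there were Cryab 0.096, Serpina3h -0.62, Ankrd1 -0.68, Rrad -0.73, Cx3cl1 -0.52, Cilp -0.51, Myl4 -0.58, Slc25a1 -0.26, Uchl1 -0.63, A930003A15Rik -0.73, Gys2 -0.019, Cdkn1a -0.46, Clec10a -0.43, Il20rb -0.35, Myh3 -0.49, Gm13889 -0.32, 2310014F07Rik 0.041, Nrarp 0.11, Pde4a 0.098, Gm16062 0.19, Mpp3 0.026, Tcf15 0.014, Pts 0.21, Sdhd 0.068, Smad3 0.082, Pm20d2 0.12, Efcab6 0.021, Gm10012 0.022, Colq -0.32, Chrne -0.37, Chrna1 -0.51, Eda2r -0.47, Cox8b 0.090, Ccl6 -0.38, Tnfrsf23 -0.26, Serpina3i -0.39, Hsf2bp -0.35, Ear11 -0.50 and Mrc1 -0.29. No read numbers were at hand, so what depth limits could not be given.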
